A study of Chlorocebus aethiops with 8 samples.

Results

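Cytoplasmic RNA of COS cells given siRNAs that target RHA, the RNA helicase made from the gene DHX9, was set beside cytoplasmic RNA of COS cells given scrambled siRNAs. The arrays were chosen by their titles, which name the cytoplasmic fraction, the siRNA and a replicate number: 2 arrays under RHA siRNA and 2 under control siRNA, 4 arrays of the 8 in all. The other 4 arrays held polysomal RNA of the same 2 treatments. COS is a kidney-derived line of the African green monkey that carries SV40 large T antigen in every group, and its RNA was read by probes designed for the rhesus macaque. Both treatments used 0.5 nM siRNA. The RHA siRNAs were designed on the human coding sequence, at nucleotides 2701 to 2721 and at 2784 to 2803. On 7 plates of 100 mm, 4 h without serum was followed by 24 h in medium containing 10% serum, and the transfection was repeated after the cells had been split. Each array received cDNA amplified from 25 ng of RNA. The labels do not say that replicates were separate cultures, so p-values measure the spread between these arrays, which may be technical.

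RHA is a DExH-box helicase that unwinds RNA duplexes and RNA-DNA hybrids. In the nucleus it is known to bridge the coactivator CBP and RNA polymerase II, and in the cytoplasm it binds structured leaders of certain mRNAs, JUND among them, and helps them onto polysomes. The amount of an mRNA in the cytoplasm depends on its transcription, processing, export and decay. The comparison here asked which RNAs differed in that amount between RHA siRNA and control siRNA. The arrays read RNA, so the amount of RHA protein was not measured.

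Values are array intensities on a linear scale, and differences are log2 of RHA siRNA over control siRNA within a replicate number, called pair 1 and pair 2. Their mean is the difference that limma tested. Each SE given with a mean is from that fit, which had no term for the replicate number and used all 8 arrays. It is not the spread of the 2 pair differences. Over all tested probe sets the median SE was 0.49, and 0.27 with the replicate number as a term. The median intensity of the 4 arrays lay between 19.6 and 20.8, and no 2 arrays held identical values. The replicate numbers separated the arrays more than the siRNA did. Across probe sets, which are not independent, Pearson's r was 0.931 between the RHA and control arrays of replicate 1 and 0.965 in replicate 2. It was 0.858 between the RHA arrays and 0.826 between the control arrays of the 2 numbers. The control array of replicate 1 was the least like the others of its number, with 0.949 as its median r to them. The distance between 3' and 5' probe sets of actin, GAPDH and EF1A transcripts, which widens as RNA shortens, averaged log2 2.98 under RHA siRNA and 4.09 under control siRNA in replicate 1. In replicate 2 it averaged 3.56 under RHA siRNA and 3.83 under control siRNA. Its part in the differences below was not tested, and the differences are given for both pairs, so that pair 2 stands without the control array in question.

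The siRNA target was lower in both pairs, by different amounts. DHX9, read by a probe set at an intensity of 130 and 254 under RHA siRNA, had 244 and 342 under control siRNA in replicates 1 and 2. The RHA siRNA array of replicate 2 lay above the control array of replicate 1, so the groups overlapped. DHX9 thus stood at 53.3% of control in pair 1 and 74.2% in pair 2 (log2 -0.91 and -0.43). The mean was -0.67 on the log2 scale (SE 0.59), between -1.15 and -0.19 with each cytoplasmic array left out in turn, and did not pass the test, with an adjusted p of 1.00 in limma. The tested probe set carries a suffix for probes shared between transcripts, so it may read more than DHX9. The symbol had 4 probe sets, of which the other 3 were too dim to be tested. The difference of these 3 in pair 2 was -1.33, 0.04 and 0.02, and in pair 1 it was -0.72, -0.10 and -0.40, so the second-pair decrease seen by the tested probe set was shared by 1 of them.

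No probe set passed the test over the whole array. Limma called 0% of 26383 probe sets higher and 0% lower at an adjusted p under 0.05, and 426 (1.61%) had an unadjusted p under 0.05. That fit had no term for the replicate number, so the distance between the replicates counted as error. With the replicate number as a term, limma again called none, with a smallest adjusted p of 0.267. In that second fit 3174 probe sets had an unadjusted p under 0.05, so the small number without the term partly reflects the choice of fit. The verbs below therefore report values and not changes that passed a test, and a p above the threshold does not show that an RNA was the same under both siRNAs. At least 2-fold in both pairs, 100 probe sets were higher (0.379%) and 115 lower (0.436%), whereas 245 (0.929%) went at least 2-fold in opposite ways. Pair 1 held 3169 probe sets at least 2-fold higher and 796 lower. Pair 2 held 617 higher and 1181 lower, so the excess lay on opposite sides in the pairs. Across probe sets the differences of the pairs had Pearson's r of 0.01.

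**Figure D1:**
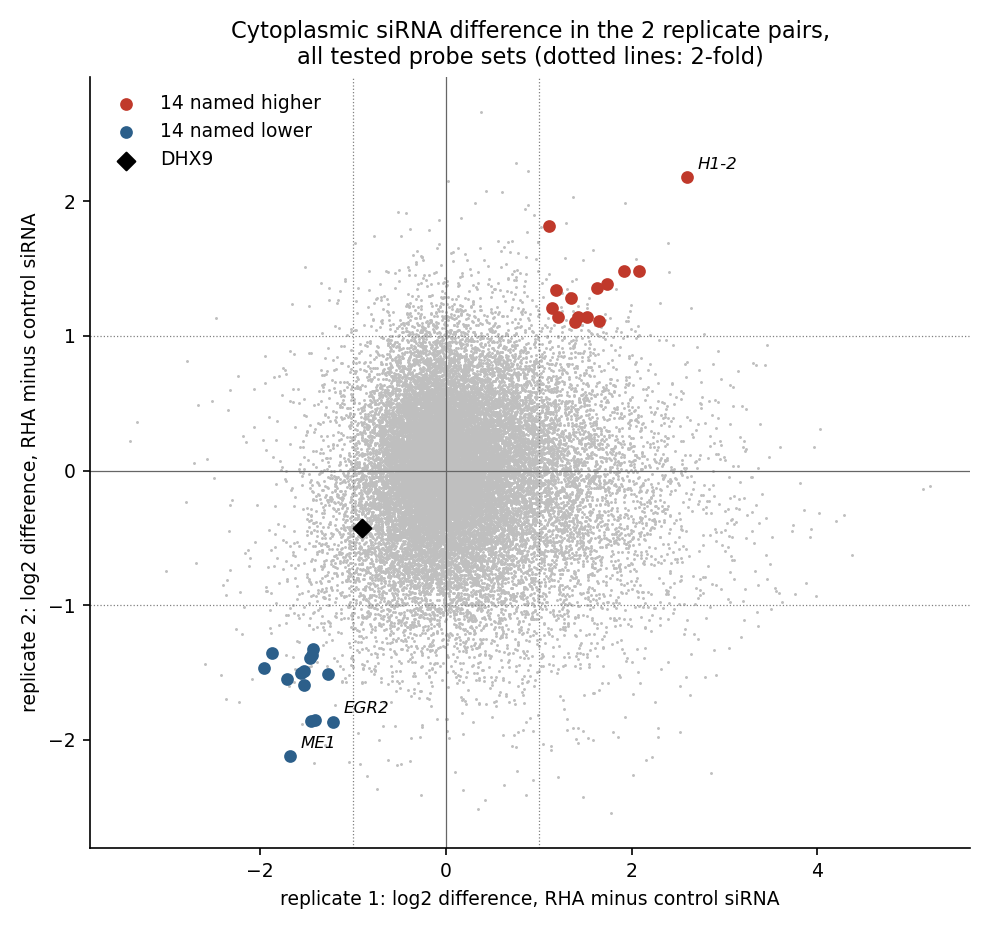
Each grey point is 1 of the 26383 tested probe sets, with its log2 difference of RHA over control siRNA in cytoplasmic RNA of replicate 1 on the x axis and of replicate 2 on the y axis; dotted lines mark 2-fold. Red and blue points are the 14 genes named as higher and the 14 named as lower, and the black diamond is DHX9 at -0.91 and -0.43. The cloud has no common slope (r = 0.01), and pair 1 spreads further than pair 2.

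The median difference varied with brightness. Among the dimmest of 4 equal bins of tested probe sets, with a mean intensity of 19.9 to 30.9, the median difference was -0.08 in pair 1 and 0.08 in pair 2. It was 0.02 and 0.03 in the next bin, and 0.27 and -0.05 in the third. The brightest bin, above 228, had a median of 0.19 in pair 1 and -0.10 in pair 2. The 2 brighter bins thus lay above 0 in pair 1 and below 0 in pair 2. The part of brightness in the gene list medians below was not tested.

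**Figure D2:**
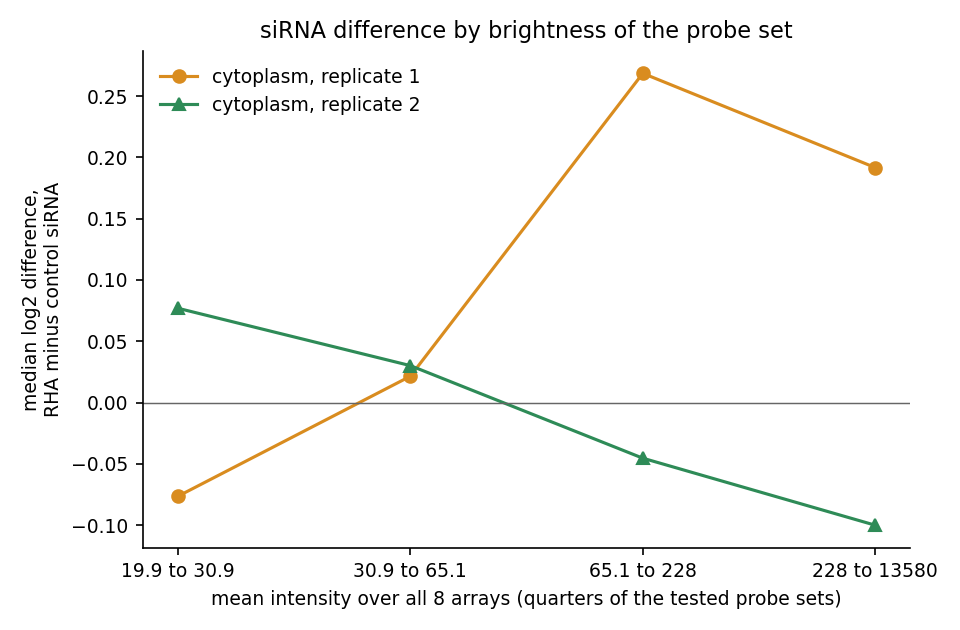
Median log2 difference of RHA over control siRNA in cytoplasmic RNA, for 4 bins of the tested probe sets ordered by mean intensity over all 8 arrays (6595 or 6596 probe sets each). Circles are replicate 1 and triangles replicate 2, and the pairs part in the 2 brighter bins, at 0.27 against -0.05 and 0.19 against -0.10.

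Among 10106 genes, each read by its brightest tested probe set, both RHA siRNA arrays lay above both control arrays for 11.6% and below them for 8.88%. The genes named first are those with the largest difference in the weaker of their 2 pairs, 14 in each direction, taken where both group means were above the limit for testing. The smallest such difference was 1.11 for UBE2G2 on the high side, and the next gene, not among the 14, was U2AF1 at 1.08. On the low side the last was EGR2 at -1.21, and the next was UBE2W at -1.19. These values chose the genes and are given as a description.

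H1-2, a linker histone that compacts chromatin, led the high side. Its intensity was 1572 and 847 under RHA siRNA, against 259 and 187 under control siRNA, a 5.24-fold difference (log2 2.60 and 2.18 in the pairs; SE of the mean 0.43). Both RHA siRNA arrays lay at more than 3 times the higher control value. The probe set has the same suffix as that of DHX9, as do those of SUGCT, KDELR2 and NDUFS8 among the 28 named genes, and 2 dim probe sets of H1-2, too dim for testing, had mean differences of 0.06 and -0.12. The H1-2 value therefore rests on a probe set that may read more than H1-2.

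KDELR2, DDIT3, UBE2G2 and ORMDL2 are described together for their known roles at the endoplasmic reticulum (ER) or under its stress, a grouping made after their values were seen and not counted or tested. KDELR2, a receptor that returns ER proteins from the Golgi, had 139 and 184 under RHA siRNA, against 54.5 and 75.7 under control siRNA, so the groups did not overlap. Its difference was 1.34 in pair 1 and 1.28 in pair 2. Further tested probe sets of KDELR2 were higher in both pairs in 2 of 2 cases, by means of 0.89 and 1.08. These also carry the suffix for shared probes and were dim, at 18.8 to 23.4 under control siRNA. DDIT3, a transcription factor induced by ER stress and amino acid shortage, had 885 and 667 under RHA siRNA, against 281 and 310 under control siRNA (log2 1.65 and 1.11). UBE2G2, a ubiquitin-conjugating enzyme of ER-associated degradation, had 123 and 59.5 under RHA siRNA, against 47.1 and 27.6 under control siRNA. ORMDL2, an ER protein that restrains sphingolipid synthesis, differed by 1.18 and 1.34.

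Mitochondrial proteins on the high side were ATP5F1B, NDUFS8, SOD2 and SUGCT. ATP5F1B, the catalytic beta subunit of ATP synthase, had 1061 and 1421 under RHA siRNA, against 317 and 545 under control siRNA (log2 1.74 and 1.38). Its further tested probe set differed by 1.23 in pair 1 and 0.04 in pair 2. NDUFS8, an iron-sulphur subunit of complex I, had 714 and 762 under RHA siRNA, against 323 and 330 under control siRNA, values that lay close together within each group. A dimmer NDUFS8 probe set differed by 1.57 in pair 1 and by -0.20 in pair 2, so pair 2 disagreed between the probe sets. SOD2, the manganese superoxide dismutase, had 643 and 1134 under RHA siRNA, against 278 and 515 under control siRNA. Its second probe set was also higher in pair 1 but not in pair 2 (1.03 and -0.83). SUGCT, an enzyme of glutarate metabolism, differed by 2.08 and 1.49.

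The remaining genes on the high side were of several kinds. SPINK6, a secreted serine protease inhibitor, had 471 and 504 under RHA siRNA, against 152 and 197 under control siRNA. PRPF3, a factor of the U4/U6 small nuclear ribonucleoprotein, differed by 1.52 and 1.14, and BCL7A, a subunit of BAF chromatin remodelling complexes, by 1.42 and 1.14. The further BCL7A probe set was higher by 0.60 and 0.69, in the same direction in both pairs. SPMAP1 differed by 1.92 and 1.48, and a locus listed as LOC701346 by 1.11 and 1.81. A further tested probe set of LOC701346 was higher in both pairs (0.51 and 0.59). Others were higher in pair 1 only, at 0.06 and -0.65 and at 0.43 and -0.24. Over these 14 genes the fold difference ran from 2.25 to 5.24, each with an adjusted p of 1.00 in limma.

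**Figure D3:**
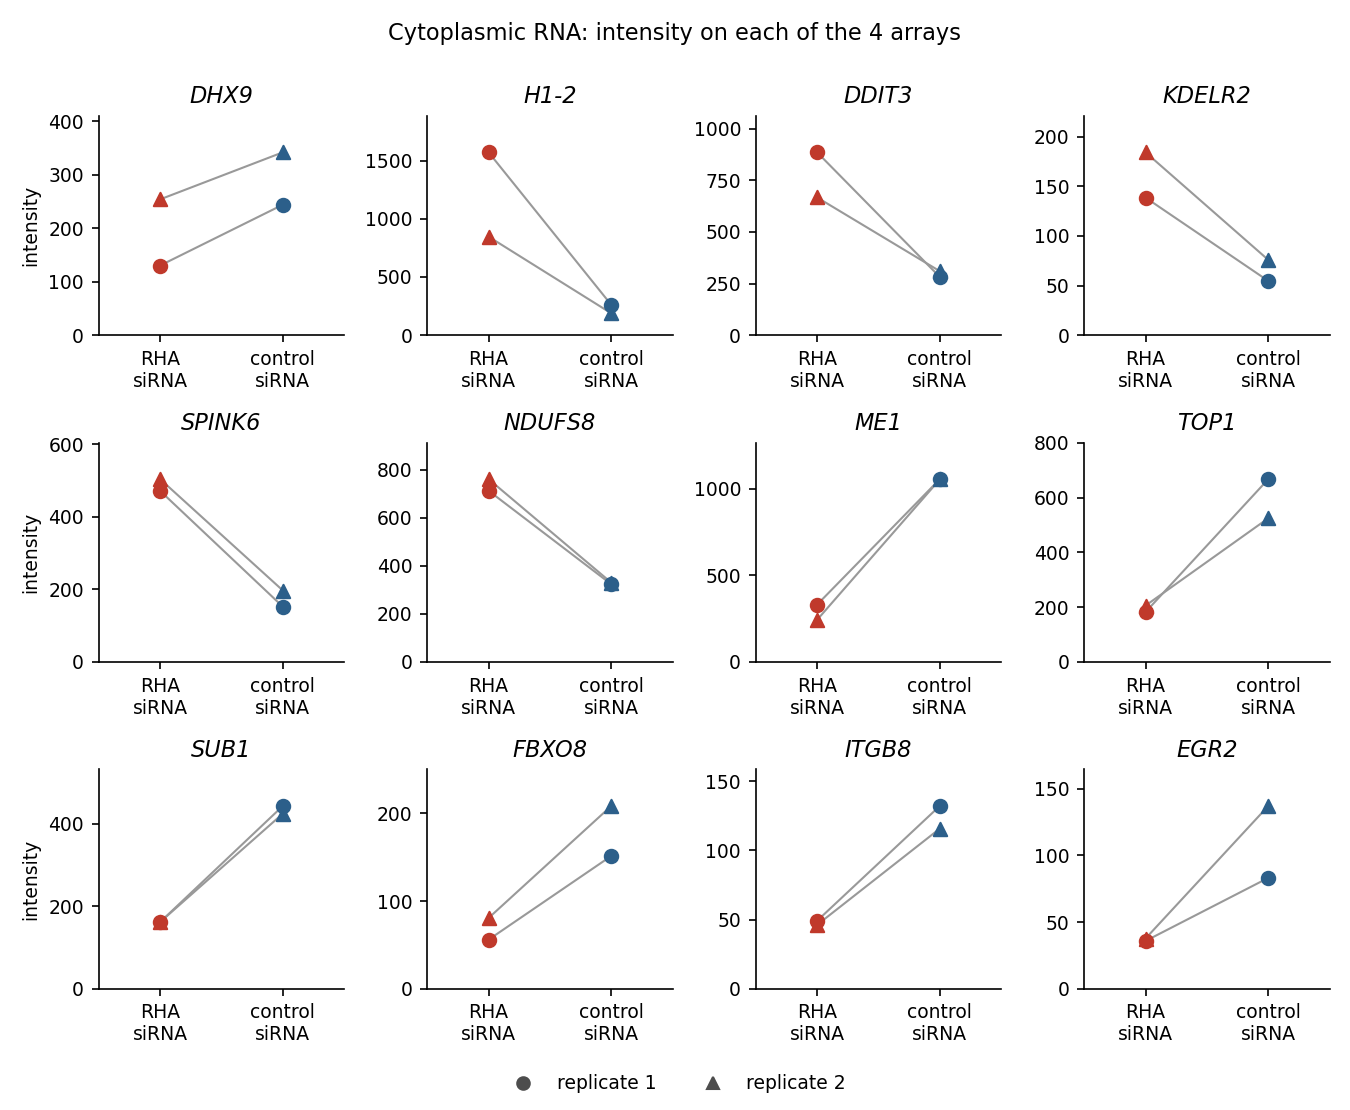
Intensity (linear axis from 0) of DHX9 and of 11 of the named genes on each of the 4 cytoplasmic arrays, with RHA siRNA in red on the left and control siRNA in blue on the right. Circles are replicate 1, triangles are replicate 2, and a line joins arrays of 1 number; NDUFS8 and SUB1 lie close together within each siRNA, while DHX9 overlaps between the groups at 254 and 244.

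ME1, the cytosolic malic enzyme that supplies NADPH, led the low side. Its intensity was 331 and 243 under RHA siRNA, against 1057 and 1056 under control siRNA (log2 -1.68 and -2.12; SE of the mean 0.34), which put it at 26.8% of control. The control arrays of both replicates gave nearly the same value. Of 4 further tested ME1 probe sets, 2 were lower in both pairs (means -0.35 and -0.77). The others had 0.93 and 2.39 in pair 1 and -1.38 and -1.42 in pair 2, so all 5 probe sets of ME1 were lower in pair 2 and 3 of 5 in pair 1.

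TOP1, which relaxes supercoils ahead of RNA polymerase, had 182 and 206 under RHA siRNA, against 667 and 525 under control siRNA (log2 -1.87 and -1.35; SE of the mean 0.31). A second, dimmer TOP1 probe set was also lower in both pairs, at -0.86 and -1.57. SUB1, a single-stranded DNA-binding coactivator of RNA polymerase II, had 161 and 162 under RHA siRNA, against 443 and 424 under control siRNA. Further SUB1 probe sets were lower in both pairs in 1 of 3 cases, and the other 2 differed by 0.17 and 0.09 in pair 1 and by -0.66 and -0.70 in pair 2. TADA2B, an adaptor of the SAGA acetyltransferase complex, had 24.0 and 31.7 under RHA siRNA, against 70.7 and 89.7 under control siRNA. Its second probe set went the other way (0.67 and 1.42). EGR2, an immediate-early zinc-finger transcription factor, had 35.9 and 37.7 under RHA siRNA, against 83.2 and 137 under control siRNA. For EGR2, too, the second probe set was not lower (0.17 and 0.14).

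Other genes on the low side act at the cell surface or in signalling. ITGB8, an integrin subunit that activates latent TGF-beta, had 49.1 and 46.1 under RHA siRNA, against 132 and 116 under control siRNA. GAS6, a ligand of TAM receptor kinases, had 71.8 and 147 under RHA siRNA, against 207 and 414 under control siRNA, and its dimmer probe set differed by 0.40 and -0.09. CMTM8, a membrane protein, differed by -1.96 and -1.47. NEK7, a kinase of mitosis and of the NLRP3 inflammasome, differed by -1.41 and -1.86. FBXO8, an F-box protein, had 56.0 and 80.7 under RHA siRNA, against 152 and 209 under control siRNA.

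The rest were SLC25A21, a mitochondrial oxodicarboxylate carrier (-1.71 and -1.54), LRCH2 (-1.52 and -1.59), DNAL1, an axonemal dynein light chain (-1.27 and -1.51), and EQTN, a protein of the sperm acrosome (-1.45 and -1.86). The 14 genes stood at 26.8% to 38.5% of control, each with an adjusted p of 1.00 in limma. Where a named gene had further tested probe sets, these took its direction in both pairs in 5 of 9 cases on the high side and 5 of 12 on the low side.

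A few genes passed the same rule with 1 group under the limit for testing (an intensity of 19.9), so no fold is given. CCL23, a chemokine, had 35.7 and 48.5 under RHA siRNA, against 14.6 and 22.3 under control siRNA. RAB33A, a small GTPase of vesicle transport, had 39.4 and 39.8 under RHA siRNA, against 12.6 and 19.9 under control siRNA. SART1, a splicing factor, and RBP7, a retinol-binding protein, were the other two on the high side. PLSCR4, a phospholipid scramblase, had 10.7 and 14.6 under RHA siRNA, against 26.7 and 35.8 under control siRNA. With it on the low side were NIPAL2, PWWP3B and SENP7, a SUMO protease that had 19.4 and 16.3 under RHA siRNA, against 40.6 and 28.9 under control siRNA.

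The rule that named these genes used no polysomal difference, but it was chosen with earlier results of these data known. The limit for testing and the brightest probe set of a gene were set over all 8 arrays, polysomal ones included. Of the 14 genes higher in cytoplasm, 8 were also higher in both polysomal pairs, where 27.3% of all genes were, and 1, NDUFS8, was lower in both, a combination that 5.96% of all genes had. Of the 14 genes lower in cytoplasm, 14 were lower in both polysomal pairs, where 27.4% of all genes were; 3.96% of all genes were below 0 in both cytoplasmic and above 0 in both polysomal pairs. The polysomal means on the low side ran from -1.56 to -0.32, with a median of -0.74 beside a cytoplasmic median of -1.55. Of the 115 probe sets at least 2-fold lower in both cytoplasmic pairs, 99 (86.1%) were below 0 in both polysomal pairs, beside 25.6% of all tested probe sets. Of the 100 higher ones, 53 were above 0 in both polysomal pairs, beside 27.9% of all tested probe sets. The median polysomal difference of those 100 was 0.06 in replicate 1 and 0.86 in replicate 2. The labels do not say whether arrays of 1 number came from the same lysate. No difference between the fractions passed its own test: limma called 0% of probe sets for the polysomal minus the cytoplasmic effect, with 46 at an unadjusted p under 0.05.

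**Figure D4:**
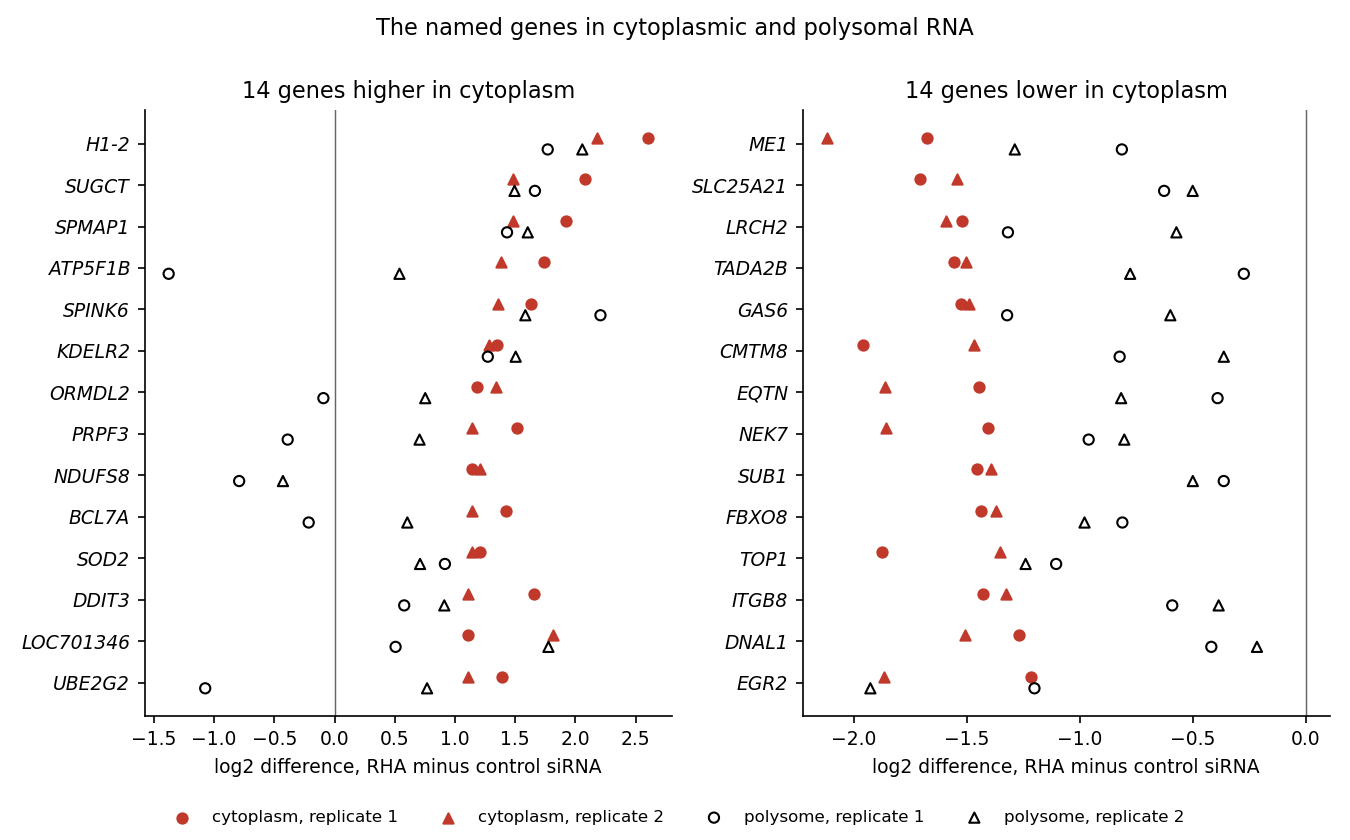
Log2 difference of RHA over control siRNA for the 14 genes higher (left panel) and the 14 lower (right panel) in cytoplasm. Red filled points are cytoplasmic and open black points polysomal RNA, with circles for replicate 1 and triangles for replicate 2. On the low side 14 of 14 genes lie below 0 in both polysomal pairs, and on the high side ATP5F1B, PRPF3, BCL7A, UBE2G2 and ORMDL2 lie below 0 in polysomal replicate 1 and NDUFS8 in both.

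Genes with large differences of opposite sign show how far the pairs parted. MOCS2, an enzyme of molybdenum cofactor synthesis, had 157 and 236 under RHA siRNA, against 48.7 and 644 under control siRNA, a difference of 1.69 in pair 1 and -1.45 in pair 2. GPX2, a glutathione peroxidase, differed by 1.54 and -1.44. LUM, the matrix proteoglycan lumican, had 31.3 and 246 under RHA siRNA, against 98.4 and 104 under control siRNA (-1.65 and 1.23). LUC7L, a splicing factor, ST3GAL1, a sialyltransferase, and NECTIN1, an adhesion molecule, were lower in pair 1 by 1.02, 1.13 and 1.10 and higher in pair 2 by 1.05, 0.93 and 0.92. The other 2 tested LUC7L probe sets were higher in both pairs (1.39 and 0.94; 0.74 and 0.93), and of 2 for ST3GAL1 1 had opposite signs as well (-1.94 and 0.85) and 1 was lower in both (-0.33 and -0.12). The loci LOC711955 (2.15 and -2.15) and LOC695594 (2.52 and -1.60) were of the first kind.

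Gene lists were described by their counts and medians, with no test of a list. Over all 10106 genes the median difference was 0.06 (0.06 in pair 1 and 0.01 in pair 2). At least 1.5-fold in both pairs, 3.31% of genes were higher and 2.43% lower. Simply above 0 in both pairs were 29.3% of genes, and 24.1% were below 0 in both. No member of any list passed limma's test. Of 54 list genes named outside the 28, 23 had further tested probe sets, 38 in all, of which 13 took the gene's direction in both pairs, and for 11 genes none did. The ranges given with a median are those found when each of the 4 arrays was left out in turn.

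Replication-dependent histone genes, which package new DNA in S phase, had a median of 0.57 over 18 tested members (58 in the list, 34 with a probe set), with 0.39 in pair 1 and 0.47 in pair 2 (range 0.54 to 0.86). Of these, 11 were above 0 in both pairs and 0 below 0 in both, and 3 were at least 1.5-fold higher in both: H1-2, H4C8 and H2AC6. H4C8, a core histone, had 58.0 and 82.1 under RHA siRNA, against 32.4 and 32.8 under control siRNA. H2AC6, named after its value was seen, had 956 and 383 under RHA siRNA, against 527 and 244 under control siRNA, and of its further tested probe sets 1 was higher in both pairs (1.49 and 0.89) and 1 was not (-0.06 and 0.49). The higher of these had 10.7 and 18.4 under control siRNA, under the limit for testing. Many members were dim: on both cytoplasmic control arrays H2BC8, H2AC13 and H2AC8 were dimmer than the limit for testing. These members were among the 11, and dim ones could pass the filter through the RHA siRNA arrays. The count of 11 is therefore not independent of the filter. With no filter on dim probe sets the median of the list was 0.18.

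In the unfolded protein response and ER folding list the median over 21 tested members was 0.26, with 0.16 in pair 1 and 0.61 in pair 2 (range 0.23 to 0.63). Above 0 in both pairs were 11 members, and 0 were below 0 in both. At least 1.5-fold higher in both were 5: KDELR2, XBP1, ATF6, PDIA3 and SDF2L1, of which PDIA3, a disulphide isomerase, and SDF2L1 were named after their values were seen. Of 2 further PDIA3 probe sets, 1 was higher in both pairs (0.66 and 0.49) and 1 was not (-0.12 and 0.39). XBP1, a transcription factor activated by unconventional splicing in ER stress, had 370 and 271 under RHA siRNA, against 116 and 162 under control siRNA. ATF6, a membrane-anchored transcription factor released by ER stress, had 128 and 117 under RHA siRNA, against 70.1 and 42.4 under control siRNA. SDF2L1, an ER chaperone cofactor, had 196 and 108 under RHA siRNA, against 124 and 42.9 under control siRNA.

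The ATF4 and integrated stress response list had a median of 0.17 over 17 members (range -0.02 to 0.22), and 1 of them, DDIT3, was at least 1.5-fold higher in both pairs. ATF4, its central transcription factor, had 5151 and 4582 under RHA siRNA, against 2678 and 3857 under control siRNA, without overlap (log2 0.94 and 0.25). ASNS, the asparagine synthetase, differed by 0.87 and 0.16. SLC7A1, a transporter of cationic amino acids, was lower in both pairs (-0.56 and -0.49).

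Targets of p53 had a median of 0.28 over 18 members, 0.48 in pair 1 and 0.12 in pair 2 (range 0.08 to 0.52), with 9 above 0 and 3 below 0 in both pairs. GADD45A, which slows the cell cycle after DNA damage, had 740 and 767 under RHA siRNA, against 284 and 407 under control siRNA (log2 1.38 and 0.91). Neither of the other 2 tested GADD45A probe sets was higher in both pairs: they differed by 1.43 and -0.45, and by -0.06 and -0.70. RRM2B, a ribonucleotide reductase subunit for DNA repair, had 76.2 and 82.1 under RHA siRNA, against 23.3 and 41.6 under control siRNA (log2 1.71 and 0.98). A second, dimmer RRM2B probe set went the other way, with 19.8 and 16.9 under RHA siRNA, against 44.9 and 35.1 under control siRNA (-1.18 and -1.06). By their brightest probe sets these were the 2 members at least 1.5-fold higher in both pairs. MDM2, the ubiquitin ligase of p53, differed by 1.64 in pair 1 and 0.20 in pair 2, and TP53I3 by -0.56 and -0.55.

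Respiratory complex I genes had the highest share of members above 0 in both pairs among lists with at least 5 tested members, 18 of 25 (72.0%), with 2 below. Their sizes were small: the median was 0.26 (0.36 in pair 1 and 0.15 in pair 2), and -0.05 without the RHA siRNA array of replicate 1. Of the members 2, NDUFS8 and NDUFA9, were at least 1.5-fold higher in both. NDUFA9 had 123 and 157 under RHA siRNA, against 44.3 and 89.6 under control siRNA. Complexes II to V had a median of 0.29 over 28 members, or -0.07 without that array, with 15 above 0 and 6 below 0 in both pairs. Among them COX7A2, a subunit of cytochrome c oxidase, had 332 and 200 under RHA siRNA, against 545 and 421 under control siRNA, in the direction opposite to ATP5F1B, while a second COX7A2 probe set differed by 0.09 and -1.31. The tricarboxylic acid cycle list had a median of 0.07 (14 members; -0.01 after quantile normalization), and its IDH3B, a subunit of isocitrate dehydrogenase, differed by 2.06 and 0.74.

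Glycolysis genes had a median of 0.26 over 17 members, with 0.54 in pair 1 and 0.13 in pair 2 (range 0.07 to 0.56), and 8 were above 0 in both pairs with 1 below. TPI1, triosephosphate isomerase, had 1316 and 1195 under RHA siRNA, against 325 and 1013 under control siRNA, but its second tested probe set was lower in both pairs (-0.40 and -0.20). GAPDH, a further glycolytic enzyme, had 2182 and 1073 under RHA siRNA, against 1140 and 641 under control siRNA, and was the single member at least 1.5-fold higher in both pairs. In the NADPH supply and NRF2 target list the median was -0.05 over 15 members, and ME1 was the single one at least 1.5-fold lower in both pairs.

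Lists of protein quality control were shifted in pair 1 and not in pair 2. Proteasome subunits had a median of 0.67 in pair 1 and -0.03 in pair 2 (25 members). PSMB7, a catalytic-ring subunit, had 2356 and 1580 under RHA siRNA, against 947 and 914 under control siRNA. Cytosolic chaperones had 0.61 in pair 1 and -0.02 in pair 2 (29 members). BAG3, a cochaperone of stress, differed by 1.28 and 0.64, and DNAJB4 was lower in both pairs (-0.86 and -1.10). The ubiquitin, NEDD8 and cullin list had 0.31 and -0.02 (30 members), but 4 of its members, FBXO8, UBA6, CUL5 and CUL2, were at least 1.5-fold lower in both pairs and 1, COPS6, was higher. The further tested probe sets of 3 of these genes were higher in pair 1 and lower in pair 2: they differed by 1.67 and -1.13 for UBA6, by 1.53 and -0.90 for the dimmer of 2 CUL5 probe sets (1.30 in pair 1 for the brighter), and by 1.12 and -0.78 for CUL2. In pair 1 the sign for UBA6, CUL5 and CUL2 thus differed between probe sets. CUL2, named after its value was seen, is a cullin scaffold like CUL5. UBA6, a ubiquitin-activating enzyme, had 196 and 199 under RHA siRNA, against 460 and 363 under control siRNA.

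Among the machinery of translation, aminoacyl-tRNA synthetases had the highest median of the lists with at least 5 tested members, 0.61 over 13 members (0.91 in pair 1 and 0.23 in pair 2; range 0.26 to 0.76). FARSB, the beta subunit for phenylalanine, had 738 and 801 under RHA siRNA, against 372 and 403 under control siRNA. SARS1 and GARS1, for serine and glycine, the second named after its value was seen, were the other two at least 1.5-fold higher in both pairs, and AIMP1, a scaffold protein, was lower by its brightest probe set (-0.52 and -1.13), while 0 of 3 others were lower in both pairs. Initiation and elongation factors had 0.35 in pair 1 and -0.05 in pair 2 (30 members). EIF3I, a subunit of initiation factor eIF3, had 1623 and 1297 under RHA siRNA, against 4040 and 2490 under control siRNA, while its second probe set differed by 0.18 and -0.65. EIF4E2, a cap-binding relative of eIF4E, had 685 and 808 under RHA siRNA, against 296 and 403 under control siRNA. Cytosolic ribosomal proteins had a median of 0.09, with 0.09 in pair 1 and 0.07 in pair 2 over 35 members, and RPS10 was the single one at least 1.5-fold lower in both pairs (-0.83 and -1.02).

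Splicing factors and hnRNPs had a median of 0.35 over 37 members (0.58 in pair 1 and 0.19 in pair 2; range 0.10 to 0.56), with 5 at least 1.5-fold higher in both pairs and 0 lower. U2AF1, which recognises the 3' splice site, had 2227 and 4042 under RHA siRNA, against 1055 and 1510 under control siRNA. SNRPD3, a core Sm protein, had 1251 and 1765 under RHA siRNA, against 482 and 926 under control siRNA. Cap-binding and export genes had a median of 0.27 over 19 members (0.14 in pair 1 and 0.18 in pair 2). Among these NXF1, the main mRNA export receptor, had 126 and 165 under RHA siRNA, against 79.5 and 77.5 under control siRNA. Genes of mRNA decay had a median of 0.16 (35 members). EXOSC2, an exosome subunit, was lower in both pairs (-1.04 and -0.61), as was XRN2, a nuclear exonuclease (-0.54 and -1.05). Further probe sets were lower in both pairs in 1 of 2 cases for EXOSC2 and 0 of 3 for XRN2, whose others were higher in pair 1 (0.11, 1.15 and 0.70).

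Relatives and partners of RHA did not share 1 direction. The other DExD/H-box helicases had a median of 0.53 in pair 1 and 0.02 in pair 2, and 0 of 35 were at least 1.5-fold in the same direction in both pairs. DDX42, a splicing-associated helicase, differed by 0.87 and 0.33. RHA and its double-stranded RNA-binding partners had a median of 0.04 over 24 members (-0.02 after quantile normalization), with 8 above 0 and 8 below 0 in both pairs. BRCA1, a DNA repair protein that binds RHA, had 54.4 and 42.5 under RHA siRNA, against 24.9 and 26.6 under control siRNA. In the RISC and miRNA list (median 0.19, 16 members) FMR1, an RNA-binding repressor of translation, had 630 and 422 under RHA siRNA, against 1292 and 1022 under control siRNA, without overlap.

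RHA is known as a coactivator of CREB and NF-kB, and the sign of both lists' medians varied with the array left out. CREB and CBP-dependent genes had a median of 0.10 over 16 members (range -0.24 to 0.43), and NF-kB genes had a median of -0.15 over 15 (range -0.16 to 0.24). CREBBP, the gene of CBP, differed by -0.94 and -0.33, and ABCB1, a drug efflux pump, by 0.48 and 0.72. In the list of topoisomerases, RNA polymerase II and coactivators the median was 0.12 (35 members). TOP1 and SUB1 were its only members at least 1.5-fold lower in both pairs, and 0 were higher. TOP2B, another topoisomerase, had 947 and 856 under RHA siRNA, against 1243 and 1368 under control siRNA. BIRC3, an inhibitor of apoptosis induced by NF-kB, was lower by 0.87 and 0.66 in the pairs, in the direction opposite to SOD2, another NF-kB target. Of 2 further BIRC3 probe sets, 1 was lower in both pairs (-0.92 and -0.58) and 1 was not (-0.11 and 0.39).

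JUND had 28.1 and 44.0 under RHA siRNA, against 42.0 and 38.3 under control siRNA, so its groups overlapped and the pairs differed in sign (-0.58 and 0.20). The AP-1 and immediate-early list had a median of -0.08 over 21 members (range -0.28 to 0.15). FOSL2, an AP-1 subunit, had 103 and 146 under RHA siRNA, against 62.5 and 60.0 under control siRNA. EGR2 and FOSL2 were the members at least 1.5-fold lower and higher in both pairs.

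Interferon-stimulated and RNA-sensing genes had a median of -0.09 over 20 members. OAS1, a sensor of double-stranded RNA, had 265 and 309 under RHA siRNA, against 142 and 176 under control siRNA. A dimmer OAS1 probe set was lower in both pairs, with 48.4 and 54.1 under RHA siRNA, against 118 and 58.7 under control siRNA, and another differed by 0.02 and 0.41. IFIH1, another sensor, was lower in both pairs (-0.37 and -1.67). G1/S genes had 0.47 in pair 1 and -0.03 in pair 2 (35 members), and G2/M genes 0.42 and -0.28 (25 members). CCND1, cyclin D1, had 86.4 and 68.6 under RHA siRNA, against 56.4 and 44.1 under control siRNA. Integrin and adhesion genes had a median of 0.05 (24 members), extracellular matrix genes 0.11 (21), Hippo genes 0.24 (21), cholesterol synthesis genes 0.05 (17) and RAB and vesicle coat genes 0.05 (28). After quantile normalization the integrin, extracellular matrix, cholesterol and vesicle coat medians turned to -0.01, -0.01, -0.06 and -0.03. The Hippo median was 0.20 in pair 1 and 0.02 in pair 2. With each array left out it ran from -0.28 to 0.17, always below the value from all arrays. Of these groups, AJUBA, an adaptor that inhibits Hippo kinases, was lower by 0.55 and 1.35 in the pairs. The 3 further AJUBA probe sets were higher in pair 1 (1.64, 0.48 and 1.42) and had means above 0 (0.76, 0.24 and 0.56). SEC24D, a COPII cargo adaptor, had 273 and 213 under RHA siRNA, against 559 and 420 under control siRNA.

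**Figure D5:**
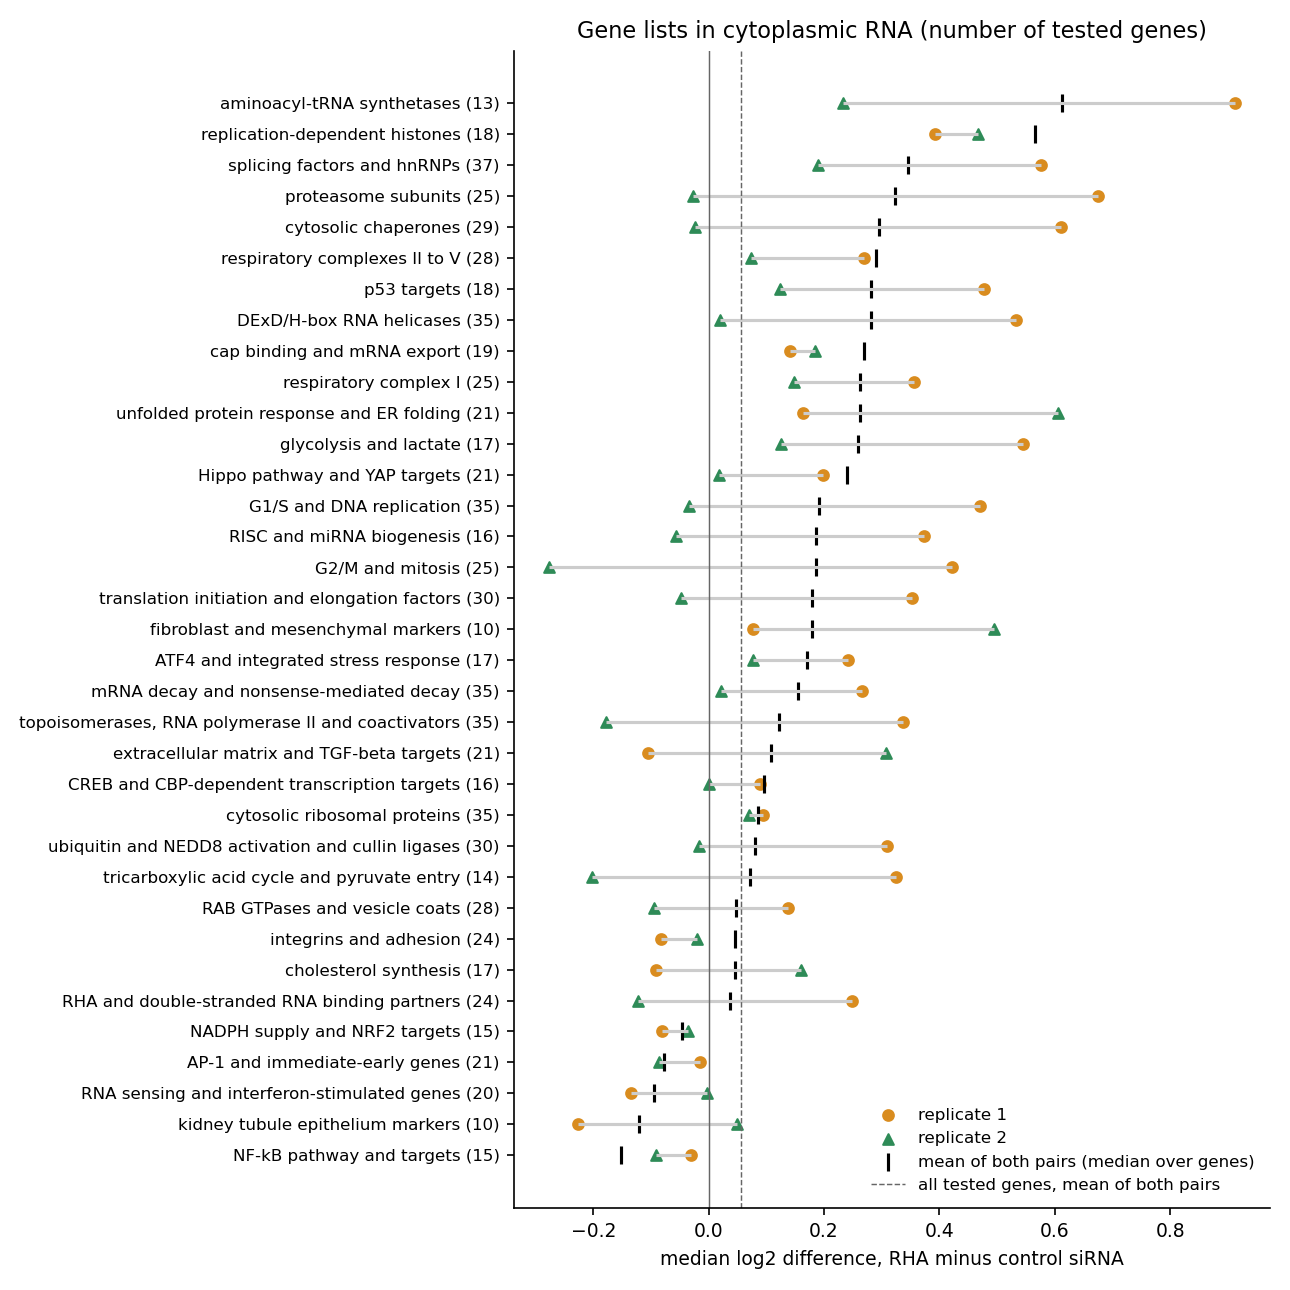
Median log2 difference of RHA over control siRNA in cytoplasmic RNA for each gene list with at least 5 tested members (number of tested genes in brackets). Circles are replicate 1, triangles replicate 2, black ticks the median of the mean of both pairs, and the dashed line is the median of all tested genes at 0.06; histones lie at 0.39 and 0.47 in the pairs, while proteasome subunits lie at 0.67 and -0.03.

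Markers checked the identity of the cells. VIM, a mesenchymal intermediate filament gene, had 6345 and 4043 under RHA siRNA, against 4408 and 4760 under control siRNA, and EPCAM, of epithelium, had 204 and 372 under RHA siRNA, against 359 and 349 under control siRNA. The summed intensity of 18 kidney tubule markers was 1935 and 1777 under RHA siRNA, against 3088 and 2051 under control siRNA, most of it from AQP1, a water channel. That of 12 fibroblast markers was 7164 and 5256 under RHA siRNA, against 5728 and 5615 under control siRNA, most of it from VIM. PTPRC, which defines leukocytes, lay between 6.70 and 12.9 on the 4 arrays, under the limit for testing. CDH1 and the proximal tubule receptors LRP2 and CUBN were likewise too dim to be tested. The median of the tested markers was -0.12 for 10 kidney tubule genes and 0.18 for 10 fibroblast genes, and 3 leukocyte and 2 hepatocyte genes were too few for a median. In bulk RNA, fewer cells of a kind and less RNA per cell cannot be told apart. Nuclear noncoding RNAs and mitochondrial-genome transcripts had no named probe set and were not analysed here.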

How the data were processed

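RNA of COS cells was measured on 8 arrays, 2 for each combination of fraction and siRNA, grouped by their titles. The deposited values are intensities on a linear scale, 1 per probe set and array; per the submitters' processing notes GCOS and RMA were used, and the background correction, normalization and software versions are not given in the sources used here. The 99 array controls were removed, the brighter 26383 of 52766 probe sets by mean over all arrays were kept (an intensity of at least 19.9), and the authors' intensities were converted to log2 here. A moderated linear model (limma 3.58.1 under R 4.3.3), two-sided and with Benjamini-Hochberg adjustment, was fitted to all 8 arrays with 4 groups. Probe sets were called at an adjusted p under 0.05. The fit was also run on simulated arrays with added shifts. There only the mean estimated shift was checked, and how many shifted probe sets were called is not reported here. The number of arrays limits the precision. GEO's platform annotation, which can be old, gave 1 symbol to 24969 probe sets, several to 361 and none to 27535, and a gene was read by its brightest tested probe set.

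Named genes were up to 14 per direction whose groups did not overlap, ordered by the smaller of the 2 pair differences, up to 4 per direction with a group mean under the limit for testing, up to 4 per list by unadjusted p, up to 4 per way with opposite pairs, and DHX9 and JUND. Probe sets with the suffix for cross-hybridising probes were left out. The arrays, the 39 lists and the naming rule were chosen with earlier results of these data known. Alternatives were the replicate number as a term, the cytoplasmic arrays alone, quantile normalization, median centring, no filter or a filter keeping the brightest 25% of probe sets, an offset of 16, a trended robust prior, array weights, the mean of a gene's probe sets, and each array left out.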

Additional observations from a re-analysis of the deposited data

Results flagged for a closer look

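For these results both cytoplasmic pairs lay on 1 side of 0 and both polysomal pairs on the other. Limma's test of the difference between fractions called none of the genes, and the medians were not tested. The difference is the polysomal minus the cytoplasmic effect, on the log2 scale. For NDUFS8, a complex I subunit, it was -1.78, with -0.79 and -0.43 in the polysomal pairs and 1.14 and 1.21 in the cytoplasmic pairs. For FOSL2, an AP-1 subunit, it was -1.25, with polysomal values of -0.08 and -0.41. For COPS6, a subunit of the COP9 signalosome, it was -1.64, and for GARS1, the glycyl-tRNA synthetase, -1.12, with polysomal values within 0.06 of 0.

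Among glycolytic enzymes the difference was -1.76 for TPI1, -1.63 for PKM, -1.55 for GPI and -1.53 for GAPDH. A second cytoplasmic probe set of TPI1 was lower in both pairs (-0.40 and -0.20). For GPI, 1 further tested probe set was higher in both cytoplasmic pairs (0.52 and 0.59) and 1 was not (-0.15 and 0.11). That of PKM was higher in both (1.04 and 0.43). The TPI1 and GAPDH probe sets carry the suffix for probes shared between transcripts. Over the whole glycolysis list the medians of the fractions differed by -0.56, whereas the median of the per-gene differences was -0.19. The medians of the fractions differed by -0.74 for aminoacyl-tRNA synthetases, by -0.30 for complexes II to V and by -0.13 for CREB and CBP-dependent genes. For the CREB and CBP-dependent genes the cytoplasmic medians were 0.09 in pair 1 and 0.0007 in pair 2. Of their 16 tested members, 8 were above 0 in each cytoplasmic pair, so their side in the cytoplasm was barely defined.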

How the results depend on the processing

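Limma called 0 probe sets in cytoplasmic RNA under each alternative but 1. Replicate numbers are shared between groups, and the deviations of the cytoplasmic arrays of replicate 1 had a correlation of 0.68, but with 2 numbers and no label of a shared culture this does not establish a pairing. With the replicate block the count was again 0, with 3174 probe sets at an unadjusted p under 0.05, a smallest adjusted p of 0.267, and 1048 at an unadjusted p under 0.05 for the difference between fractions. With the block and without the control array of replicate 2, 1030 probe sets were called higher and 120 lower, among them 25 of the named genes. That fit leaves the control array that stood apart as the only cytoplasmic control, assumed to vary like the other groups. JUND ran from -0.51 to 0.13 with each array left out, and turned to 0.13, or 0.17 with the block, without the RHA siRNA array of replicate 1. An offset of 16 gave 47 probe sets at least 2-fold higher in both pairs, 60 lower and 107 opposite. Pair 2 alone, chosen after seeing the data, had 617 higher and 1181 lower. For each of the 3 counts of 2-fold probe sets 4 other alternatives stayed within 1.5 times. Dim probe sets, under an intensity of 19.9, limit what was tested.

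Of the list medians, 288 alternatives moved by less than the spread between pairs and 72 by more. With no filter the median was 0.18 for histones, 0.0319 for CREB and CBP-dependent genes and -0.0077 for NF-kB genes. Among the brightest 25% of probe sets it was 0.40 for histones, 0.0601 for ribosomal proteins, 0.0013 for CREB and CBP-dependent genes, -0.22 for interferon-stimulated genes and 0.14 for integrins. With the offset it was 0.37 for histones, 0.0601 for ribosomal proteins and -0.10 for NF-kB genes. After quantile normalization it was -0.19 for AP-1, -0.13 for NADPH supply, 0.0427 for ribosomal proteins, 0.0226 for CREB and CBP-dependent genes, 0.17 for cap binding and export, -0.00543 for integrins and -0.015 for all genes. With the mean of a gene's probe sets it was 0.0346 for NADPH supply, 0.0359 for ribosomal proteins, 0.0343 for NF-kB genes and 0.35 for cap binding and export. The cause was not tested.

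With each array left out in turn, medians ran from 0.54 to 0.86 for histones, -0.28 to 0.15 for AP-1, -0.0159 to 0.22 for ATF4 genes, 0.23 to 0.63 for the unfolded protein response, -0.20 to 0.0851 for NADPH supply, -0.0489 to 0.63 for complex I, -0.0651 to 0.36 for complexes II to V and 0.0654 to 0.56 for glycolysis. They ran from 0.0086 to 0.19 for ribosomal proteins, 0.0334 to 0.46 for initiation and elongation factors, -0.29 to 0.26 for topoisomerases and coactivators, -0.24 to 0.43 for CREB and CBP-dependent genes, -0.16 to 0.24 for NF-kB genes, -0.21 to 0.24 for mRNA decay, 0.19 to 0.49 for cap binding and export and 0.14 to 0.80 for RISC. They ran from -0.10 to 0.11 for integrins, -0.28 to 0.17 for Hippo genes, -0.18 to 0.21 for cholesterol synthesis, -0.13 to 0.16 for vesicle coats, -0.47 to 0.13 for kidney tubule markers and -0.0023 to 0.11 for all genes. Some lists with no alternative beyond the spread between pairs also changed sign. Their medians ran from -0.28 to 0.42 for G2/M, -0.13 to 0.27 for G1/S and -0.10 to 0.62 for cytosolic chaperones. The range was -0.18 to 0.39 for the tricarboxylic acid cycle and -0.08 to 0.35 for extracellular matrix.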

Other observations

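Among glycolytic enzymes 8 had opposite signs in the fractions, and limma called none of the differences between fractions. The median of the per-gene differences, polysomal minus cytoplasmic, was -0.19 for the list, with 11 of 17 members below 0. It was -0.69 for aminoacyl-tRNA synthetases, -0.36 for proteasome subunits and -0.35 for splicing factors and hnRNPs. Of 17 tested members 8 were above 0 in both cytoplasmic pairs, namely ENO1, ALDOA, GAPDH, TPI1, PKM, PFKP, GPI and PFKL, and these 8 were below 0 in both polysomal pairs. Of all genes 5.96% had that combination. ALDOA, an aldolase, differed by -1.03 and -0.52 in polysomal RNA and by 0.41 and 0.21 in cytoplasmic RNA, and PKM, a pyruvate kinase, by -1.60 and -0.25 in polysomal RNA and by 0.96 and 0.46 in cytoplasmic RNA. Several cytoplasmic values in pair 2 were small, at 0.01 for PFKL and 0.08 for PFKP. These signs are those of the brightest probe sets. A further tested probe set of TPI1 was below 0 in both cytoplasmic pairs, and 1 of GPI had -0.15 in pair 1. Another of GPI and that of PKM were above 0 in both. The probe sets of ENO1, ALDOA, GAPDH, TPI1 and PFKL carry the suffix for probes shared between transcripts. The distance between 3' and 5' probe sets in polysomal RNA of replicate 1 was log2 3.73 under RHA siRNA and 2.54 under control siRNA, whereas in cytoplasmic RNA it was 2.98 under RHA siRNA and 4.09 under control siRNA. GAPDH is also among the transcripts behind that distance, and its part in the result was not tested.

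Histone genes also lay mostly above 0 in the other fraction: 14 of 18 tested members were above 0 in both polysomal pairs, where 27.3% of all genes were, with medians of 0.43 and 0.47. Members were kept by their mean over all 8 arrays, so dim ones could pass through the RHA siRNA arrays. Among those above 0 in both polysomal pairs, H2BC8, H2AC13 and H2AC8 were under the limit on both cytoplasmic control arrays. The count is therefore not independent of the filter.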
